A study of Mus musculus with 18 samples.

Results

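ATP-binding cassette (ABC) transporters are membrane proteins that use ATP to move substrates across a membrane, and the mouse genes fall into subfamilies A to G. Members were taken as genes whose symbol is Abc, a subfamily letter from a to g, a number and at most 1 more letter, from array features annotated with a single symbol. One gene of subfamily A was left out by the rule. This gave 47 genes of the 19938 measured, with 15 in subfamily A, 9 in B, 10 in C, 3 in D, 1 in E, 3 in F and 6 in G. Where a gene had more than 1 feature, which applied to Abcb5 alone, the feature of highest 18-array mean stood for it.

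The values were log2 expression levels from 18 Affymetrix arrays hybridised with total RNA of alveolar type II cells, the surfactant-secreting epithelial cells of the lung, isolated from mice 7 to 8 weeks old. Control mice were CEBP/a(flx/flx) littermates that lacked rtTA or Cre, so that Cebpa, which encodes a transcription factor of lung epithelial maturation, was floxed in the controls too. Mice labelled CCSP/rtTA/CEBPa(flx/flx), called Cebpa-deleted here, carried the same floxed alleles with an rtTA activator under a Clara cell secretory protein promoter. The genotype label does not write Cre, which the series' design implies by describing conditional deletion in Clara cells from early gestation and in type II cells from near term. Each genotype was sampled at 0, 2 and 24 h of hyperoxia, so that 3 arrays made up each of 6 groups. The titles give the times and the design gives the hyperoxia, while every sample's description mentions air. The replicates are numbered 1 to 3 in the controls and in the Cebpa-deleted group at 0 h, 2 to 4 in the Cebpa-deleted group at 2 h, and 1, 2 and 4 in the Cebpa-deleted group at 24 h. Nothing in the labels says that arrays of a group came from separate animals, and p-values therefore reflect only how far these samples varied, which may be technical variation.

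Subfamilies A and G are known mainly for moving lipids and sterols, and Abca1 and Abcg1 hand cholesterol and phospholipid from type II cells and macrophages to lipoproteins. Subfamilies B and C hold the pumps that export drugs, bile constituents and glutathione or glucuronide conjugates, together with smaller carriers of the mitochondrial inner membrane and the sulfonylurea receptors of potassium channels. Members of subfamily D bring fatty acyl-CoA into peroxisomes or cobalamin out of lysosomes, and proteins of subfamilies E and F have no membrane part and act at the ribosome. Abcg2 and Abcb1a are also known as efflux pumps of capillary endothelium.

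The windows of 250 bases upstream of the annotated gene starts are shown for 5 members with genotype differences, because the deleted factor binds DNA. The first 4 were picked among windows that hold a match to the motif, and Abcg3, also called, is shown as a member without a match. Sequences are from RefSeq (GRCm38.p6) and run 5′ to 3′ on the gene's strand. Capitals mark matches on either strand to TTNNGNAA, a simplified form of the site that C/EBP factors recognise, and no other motif was searched.
Abcg2, chr6:58584283-58584532, plus strand: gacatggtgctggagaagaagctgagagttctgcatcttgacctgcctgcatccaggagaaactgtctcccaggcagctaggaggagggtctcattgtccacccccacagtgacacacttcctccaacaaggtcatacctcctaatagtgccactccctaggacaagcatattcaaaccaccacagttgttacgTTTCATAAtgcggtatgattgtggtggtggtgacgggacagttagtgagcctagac
Abcb1a, chr5:8566841-8567090, plus strand: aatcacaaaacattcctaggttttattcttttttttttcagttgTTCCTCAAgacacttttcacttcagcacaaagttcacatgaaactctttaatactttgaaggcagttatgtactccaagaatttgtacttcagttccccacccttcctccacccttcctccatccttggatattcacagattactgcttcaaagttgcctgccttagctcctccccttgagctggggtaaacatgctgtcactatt
Abcb1b, chr5:8797897-8798146, plus strand: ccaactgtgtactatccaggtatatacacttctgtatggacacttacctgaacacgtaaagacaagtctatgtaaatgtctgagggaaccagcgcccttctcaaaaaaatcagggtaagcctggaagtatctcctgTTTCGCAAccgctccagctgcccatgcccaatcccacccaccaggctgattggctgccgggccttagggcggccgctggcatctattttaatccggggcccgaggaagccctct
Abcd3, chr3:121815303-121815552, minus strand: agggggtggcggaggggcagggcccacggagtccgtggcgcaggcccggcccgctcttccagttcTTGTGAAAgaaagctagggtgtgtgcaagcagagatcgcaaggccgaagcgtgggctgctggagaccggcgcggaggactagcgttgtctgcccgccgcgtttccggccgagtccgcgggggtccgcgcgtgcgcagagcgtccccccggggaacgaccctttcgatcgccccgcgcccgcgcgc
Abcg3, chr5:104982718-104982967, minus strand: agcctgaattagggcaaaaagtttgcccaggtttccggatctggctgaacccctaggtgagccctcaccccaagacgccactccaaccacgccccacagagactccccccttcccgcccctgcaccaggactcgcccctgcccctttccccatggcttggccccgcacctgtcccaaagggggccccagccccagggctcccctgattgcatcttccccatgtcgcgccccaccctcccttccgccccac
The match begins 56 bases before the Abcg2 start, 206 before Abcb1a, 114 before Abcb1b and 185 before this Abcd3 start. The Abcd3 window that is not shown also held a match, 200 bases before its start. A window was found for 37 members, and 15 of their 44 windows held the motif (34.1%), against 36.8% of 32851 windows of all genes. The other 2 Abcg2 windows held no match, nor did the windows of Abca5, Abca8b, Abca15 and Abcc5, which were also called, and a match is a description of letters, not of a bound site.

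The Cebpa feature was read first as a check of the labels. At 24 h its level was 10.12 to 10.45 in control arrays and 8.26 to 8.66 in Cebpa-deleted arrays, and at 2 h it was 10.43 to 10.68 against 8.96 to 9.98. At 0 h the ranges were 10.95 to 11.04 and 10.43 to 10.66. Cebpa was lower by 1.83 at 24 h (adjusted p = 8.19e-06) and by 1.10 at 2 h (adjusted p = 0.00461), whereas the 0 h change of -0.43 did not pass (adjusted p = 0.429). The arrays differed in spread: the interquartile range of the values was 2.89 to 3.062 at 0 h in Cebpa-deleted arrays and 2.973 to 3.041 in controls. At 24 h it was 2.441 to 2.52 in controls and 1.82 to 2.129 in Cebpa-deleted arrays, with replicates 1 and 2 the narrowest. Levels of 12 type II markers were high in every group, with list means of 13.05 to 13.11 in control arrays at 0 h and 11.47 to 11.81 in Cebpa-deleted arrays at 24 h.
The means of 16 endothelial markers did not overlap between genotypes at any time. They were 8.08 to 8.35 in controls against 9.07 to 9.37 in Cebpa-deleted arrays at 0 h, 7.92 to 8.24 against 8.57 to 9.51 at 2 h, and 8.06 to 8.71 against 9.01 to 9.14 at 24 h. Of these markers 9, 15 and 15 were called higher at 0, 2 and 24 h, and Esam was called lower at 24 h. Over all genes 0.677%, 1.2% and 24.3% were called higher at those times. No endothelial marker was near the bottom of the scale, Emcn having the lowest 18-array mean at 7.298. Of the other lists at 24 h, 7 of 8 type I cell markers were called lower, 2 of 5 club cell markers higher, and 2 of 14 macrophage markers higher and 2 lower. Over all genes 24.3% were called higher and 26.4% lower. All 16 endothelial, 8 type I and 5 club cell markers lay over the all-gene median value of 7.028, where most 24 h calls were lower, as given below. In RNA of whole isolates, fewer cells of a type and less RNA per cell cannot be told apart.

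Genotypes were compared at each time and as an average over the 3 times, with a gene called when its adjusted p was below 0.05 in limma's moderated test, adjusted by Benjamini-Hochberg over all 19938 genes. At 0 h 1 of 47 members was called, against 0.858% of all genes, and at 2 h again 1 member, against 1.4% of all genes (1.2% called higher and 0.206% lower). In both cases it was Abcg2, and it was higher. At 24 h 17 members were called higher and 12 lower, against 50.7% of all genes called (24.3% higher and 26.4% lower), so that 29 of 47 is a share not far from the background. Averaged over the times, 8 members were higher and 6 lower, against 16.9% of all genes called (7.13% higher and 9.75% lower). The average over 0 and 2 h alone, an alternative chosen after seeing the data, called 3 of those 14 members, Abcg2, Abcb1b and Abca17, and the others did not pass without the 24 h arrays. Before adjustment 7 members had p below 0.05 at 0 h, 7 at 2 h, 33 at 24 h and 22 in the average. The all-gene shares at that unadjusted threshold are not given here, so these counts are not read as a trait of the members. The median member change was 0.01 at 0 h, 0.00 at 2 h and 0.13 at 24 h, beside -0.00, -0.02 and 0.05 over all genes.

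**Figure D1:**
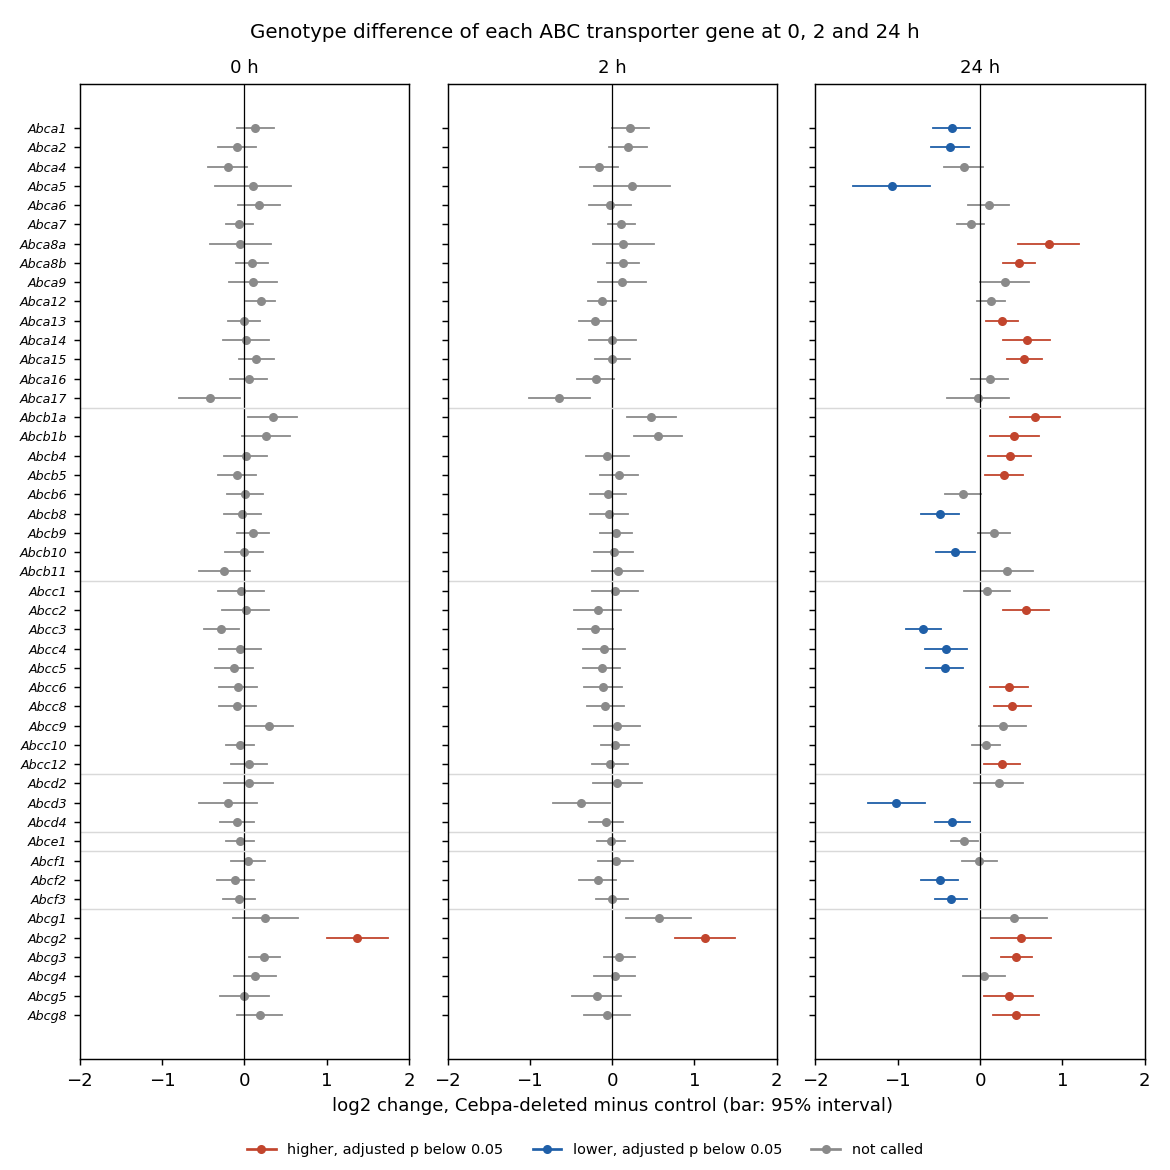
Change in log2 level, Cebpa-deleted minus control, for each of the 47 members at 0, 2 and 24 h, with points for estimates, bars for 95% confidence intervals, and members ordered by subfamily. Abcg2 alone passed the threshold at 0 h (1.37) and at 2 h (1.13), while at 24 h the calls ran from -1.08 for Abca5 to 0.83 for Abca8a.

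Among the drug and conjugate exporters, Abcg2, which pumps urate, porphyrins and many drugs, had the largest genotype difference of the members at 0 and 2 h. At 0 h its level was 6.02, 5.66 and 5.85 in control replicates 1 to 3 and 6.87, 7.40 and 7.39 in Cebpa-deleted replicates 1 to 3. At 2 h the control values were 6.30, 5.95 and 5.99, and Cebpa-deleted replicates 2 to 4 read 7.18, 7.31 and 7.14. Every Cebpa-deleted array lay above every control array at both times. At 24 h the control values were 5.92, 6.67 and 6.31 and the Cebpa-deleted replicates 1, 2 and 4 read 6.70, 6.65 and 7.05. Here the groups overlapped, because control replicate 2 lay above Cebpa-deleted replicate 2. Abcg2 was 2.59-fold higher in Cebpa-deleted cells at 0 h (log2 change 1.37, SE 0.18, adjusted p = 0.00257) and 2.19-fold higher at 2 h (1.13, SE 0.18, adjusted p = 0.00441). At 24 h it was 1.41-fold higher (0.50, SE 0.18, adjusted p = 0.025), and averaged over the times 2.00-fold higher (1.0, SE 0.10, adjusted p = 8.00e-06).
The 0 and 2 h calls stood in each fit that left out 1 array, with changes of 1.28 to 1.55 and 1.06 to 1.24, but the 2 h call did not pass when only the arrays of those 2 groups were fitted (adjusted p = 0.0592). The 24 h call of Abcg2 was lost without control 24 h replicate 1 (0.31, adjusted p = 0.159), without control 24 h replicate 3 (0.51, adjusted p = 0.0529), without Cebpa-deleted 24 h replicate 4 (0.38, adjusted p = 0.100), and after a second quantile normalization (0.28, adjusted p = 0.242). The genotype difference of Abcg2 was smaller at 24 h than at 0 h by -0.87 (SE 0.25, adjusted p = 0.0316), a call kept in 4 of 12 fits without 1 array and lost, for example, without Cebpa-deleted 24 h replicate 2 (-0.80, adjusted p = 0.0946). Between those times the control mean went from 5.85 ± 0.18 to 6.30 ± 0.38 and the Cebpa-deleted mean from 7.22 ± 0.30 to 6.80 ± 0.22 (SD, n = 3 each). The endothelial marker means given above moved with Abcg2 between the genotypes at all 3 times, and their part in the Abcg2 result was not tested.

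Abcb1a and Abcb1b encode the mouse forms of P-glycoprotein, a pump for hydrophobic drugs that is encoded by a single gene in humans. They lie side by side on chromosome 5 and are close in sequence, so signal shared between their features cannot be told apart here. At 0 h Abcb1a read 7.34, 7.16 and 7.10 in controls and 7.44, 7.62 and 7.58 in Cebpa-deleted arrays, and at 2 h 7.66, 7.67 and 7.52 against 7.68, 8.20 and 8.40. At 24 h the values were 7.30, 7.74 and 7.50 in controls and 8.20, 8.17 and 8.18 in Cebpa-deleted arrays. The groups were separate at all 3 times, narrowly at 2 h, where the highest control array and the lowest Cebpa-deleted array were nearly level. Abcb1a was 1.59-fold higher at 24 h (0.67, SE 0.14, adjusted p = 0.00172) and 1.41-fold higher on average (0.50, SE 0.08, adjusted p = 5.34e-04; 0.41, adjusted p = 0.0667, without 24 h). The changes of 0.34 at 0 h and 0.48 at 2 h did not pass (adjusted p = 0.429 and 0.129).
Abcb1b read 6.55, 6.46 and 6.22 in controls and 6.61, 6.69 and 6.72 in Cebpa-deleted arrays at 0 h. At 2 h it read 6.67, 6.42 and 6.33 against 6.85, 7.01 and 7.23, and at 24 h 6.6, 6.64 and 6.13 against 7.05, 6.86 and 6.71. Its groups were also separate at each time. Abcb1b was 1.33-fold higher at 24 h (0.42, SE 0.14, adjusted p = 0.0214) and on average (0.41, SE 0.08, adjusted p = 0.00217), while the 2 h change of 0.56 just missed the threshold (adjusted p = 0.056). Its 24 h call was lost without control 24 h replicate 3 (0.25, adjusted p = 0.137) and without Cebpa-deleted 24 h replicate 1 (0.33, adjusted p = 0.101) or 2 (0.42, adjusted p = 0.056). As for Abcg2, the endothelial means moved with both genes and their part was not tested.

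**Figure D2:**
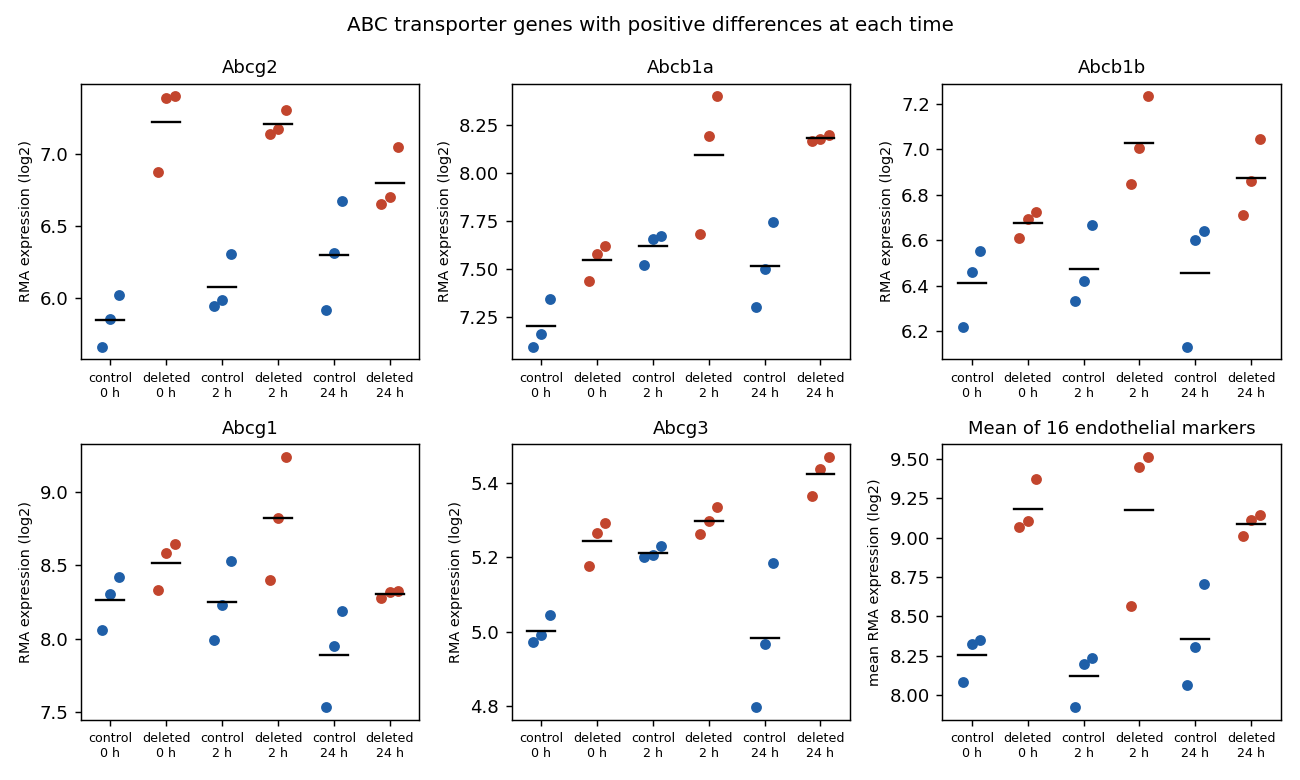
Log2 level of Abcg2, Abcb1a, Abcb1b, Abcg1 and Abcg3 and the mean level of the 16 endothelial markers on every array, by genotype (blue, control; red, Cebpa-deleted) and time in h, with black bars for group means. The Cebpa-deleted points of Abcb1a, Abcb1b, Abcg3 and the endothelial mean lie above the control points at each time, whereas Abcg2 overlaps at 24 h, where control replicate 2 reads 6.67.

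The multidrug resistance-associated proteins of subfamily C went in both directions at 24 h. Abcc3, a basolateral exporter of glucuronides and bile acids, read 9.98, 10.09 and 10.12 in controls and 9.81, 9.89 and 9.66 in Cebpa-deleted arrays at 0 h. At 2 h it read 9.11, 9.15 and 9.34 against 9.04, 9.0 and 8.94, and at 24 h 9.56, 9.61 and 9.67 against 8.80, 8.81 and 9.16. Every Cebpa-deleted array was below every control array of its time. Abcc3 was 1.61-fold lower at 24 h (-0.69, SE 0.10, adjusted p = 1.76e-04) and 1.31-fold lower on average (-0.39, SE 0.06, adjusted p = 2.53e-04; -0.24, adjusted p = 0.0963, without 24 h), and the changes of -0.28 at 0 h and -0.20 at 2 h did not pass (adjusted p = 0.326 and 0.492).
Abcc5, an exporter of cyclic nucleotides, was 1.35-fold lower at 24 h (-0.43, SE 0.11, adjusted p = 0.00462), with 8.66, 8.47 and 8.33 in controls and 7.93, 8.04 and 8.20 in Cebpa-deleted arrays, and lower on average (-0.23, SE 0.06, adjusted p = 0.0198; -0.13, adjusted p = 0.594, without 24 h). Abcc4, which exports cyclic AMP and prostaglandins, was 1.34-fold lower at 24 h (-0.42, SE 0.12, adjusted p = 0.0101). Higher at 24 h were Abcc2, the canalicular exporter of bilirubin conjugates (1.47-fold, 0.56, SE 0.14, adjusted p = 0.0036), Abcc6, which promotes ATP release (1.27-fold, 0.35, SE 0.11, adjusted p = 0.0154), and Abcc12 (1.20-fold, 0.26, SE 0.10, adjusted p = 0.0411).
Abcb4, the phosphatidylcholine floppase of the bile canaliculus, was 1.28-fold higher at 24 h with overlapping groups (0.36, SE 0.13, adjusted p = 0.0268). Abcc1, which exports leukotriene C4 and glutathione conjugates, read 9.02, 8.77 and 8.97 in controls and 9.06, 9.05 and 8.90 in Cebpa-deleted arrays at 24 h. At 0 h it read 8.39, 8.61 and 8.68 against 8.64, 8.56 and 8.36, and at 2 h 8.66, 8.60 and 8.30 against 8.25, 8.61 and 8.79. Its groups overlapped at every time, and its 24 h difference was 0.09 with a 95% interval of -0.19 to 0.37 (adjusted p = 0.589). In all, of 13 drug and conjugate exporters measured, 7 were higher and 3 lower at 24 h, and the rest, Abcb11, Abcc1 and Abcc10, did not pass. Over all genes 24.3% were higher and 26.4% lower. Of the 13, 7 had mean values under the all-gene median and 6 over it, and the genes on those sides of the median were higher in 40.7% and lower in 49.2% of cases. The median change of the 13 was 0.33, against 0.05 for all genes and 0.25 for genes under the median value.

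Of 6 measured sterol and phospholipid exporters, 2 were higher and 1 lower at 24 h, beside 24.3% and 26.4% of all genes. The higher ones, Abcg5 and Abcg8, lay under the all-gene median value, and the lower one, Abca1, lay over it. Abca1, which loads cholesterol and phospholipid onto apolipoprotein A-I, read 7.89, 7.83 and 7.97 in controls and 8.03, 7.99 and 8.07 in Cebpa-deleted arrays at 0 h. At 2 h the values were 7.74, 7.83 and 7.49 against 7.97, 7.82 and 7.93, and at 24 h 8.37, 8.37 and 8.66 against 8.11, 7.99 and 8.27. The Cebpa-deleted arrays were thus the higher group at 0 h and the lower group at 24 h, and overlapped the controls at 2 h. Abca1 was 1.27-fold lower at 24 h (-0.34, SE 0.11, adjusted p = 0.0137), and its change of 0.13 at 0 h did not pass (adjusted p = 0.814). The 24 h difference lay below that at 2 h by -0.56 (adjusted p = 0.0143) and below that at 0 h by -0.48 (adjusted p = 0.044), the latter kept in 1 of 12 fits without 1 array. The 24 h call of Abca1 was lost without control 24 h replicate 3 (-0.25, adjusted p = 0.0793) and without Cebpa-deleted 24 h replicate 2 (-0.28, adjusted p = 0.0755).
In controls Abca1 rose 1.72-fold from 2 to 24 h (0.78, SE 0.11, adjusted p = 9.34e-05), and no rise was called in Cebpa-deleted cells. Abcg1, which exports cholesterol to high-density lipoprotein, read 8.30, 8.42 and 8.06 in controls and 8.58, 8.33 and 8.64 in Cebpa-deleted arrays at 0 h, 8.23, 8.53 and 7.99 against 8.40, 8.82 and 9.24 at 2 h, and 8.19, 7.95 and 7.54 against 8.32, 8.32 and 8.28 at 24 h. Its groups separated at 24 h and overlapped before. It was called in the average, 1.33-fold higher (0.41, SE 0.11, adjusted p = 0.0147; 0.41, adjusted p = 0.18, without 24 h), and not at 24 h (0.42, adjusted p = 0.0708). Of 14 macrophage markers 7 were called higher in that average, beside 7.13% of all genes, and at 24 h they went in both directions, as given above. The endothelial marker means also separated the genotypes at each time. The part of either list in the Abcg1 result was not tested. The sterol heterodimer of intestine and liver was higher at 24 h in both parts, Abcg8 1.35-fold (0.44, SE 0.13, adjusted p = 0.0121) and Abcg5 1.28-fold with overlapping groups (0.35, SE 0.14, adjusted p = 0.0467).
Abca7 and Abcg4 were not called. Of 12 other measured genes of sterol uptake, storage and its control, 7 were lower and 1 higher at 24 h with a median of -0.41, beside 49.2% lower and a median of -0.26 for all genes over the median value, where all 12 lay. None were called by limma at 0 or 2 h, where 4 at each time had an unadjusted p below 0.05. Nceh1, which hydrolyses stored cholesterol ester, was lower by 1.11, Npc1, which moves cholesterol out of lysosomes, by 1.04, and Nr1h3, a nuclear receptor that activates Abca1 and Abcg1, by 0.53. Pltp, a phospholipid transfer protein, was higher by 0.69.

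The carriers of peroxisomes and lysosomes were lower at 24 h in 2 of 3 measured members, beside 26.4% of all genes. The lower members, Abcd3 and Abcd4, lay over the all-gene median value. Abcd3, which carries long-chain and branched acyl-CoA into peroxisomes, read 11.96, 11.85 and 11.83 in controls and 11.69, 11.71 and 11.66 in Cebpa-deleted arrays at 0 h. At 2 h it read 11.02, 11.17 and 11.41 against 11.25, 10.78 and 10.44, and at 24 h 11.06, 11.20 and 11 against 9.94, 9.85 and 10.43. The groups were separate at 0 and 24 h and overlapped at 2 h through Cebpa-deleted replicate 2. Abcd3 was 2.02-fold lower at 24 h (-1.02, SE 0.17, adjusted p = 3.17e-04) and 1.44-fold lower on average (-0.53, SE 0.10, adjusted p = 0.00114). Without the 24 h arrays the average of Abcd3 was -0.29 and not called (adjusted p = 0.316). Its changes of -0.20 at 0 h and -0.38 at 2 h did not pass (adjusted p = 0.832 and 0.397).
Abcd4, needed to release cobalamin from lysosomes, was 1.26-fold lower at 24 h (-0.33, SE 0.10, adjusted p = 0.0107), and Abcd2, a very-long-chain acyl-CoA carrier, was not called. Of 14 measured genes of peroxisome assembly and fatty acid oxidation, 10 were lower and none higher at 24 h, with a median change of -0.48. Of these 14 genes 13 lay over the all-gene median value, where 49.2% of all genes were lower with a median change of -0.26. None of them had even an unadjusted p below 0.05 at 0 or 2 h in limma's test. Pex3 and Pex19, which insert peroxisomal membrane proteins, were lower by 1.11 and 0.82, and Pex11a, which acts in peroxisome division, by 0.96. Type II marker means at 24 h were 12.25 to 12.33 in controls and 11.47 to 11.81 in Cebpa-deleted arrays, with 11 of 12 markers called lower. All 12 markers lay over the all-gene median value, where 49.2% of all genes were lower. That list moved with Abcd3 and Abcc3 at 24 h, and its part in their change was not tested.

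**Figure D3:**
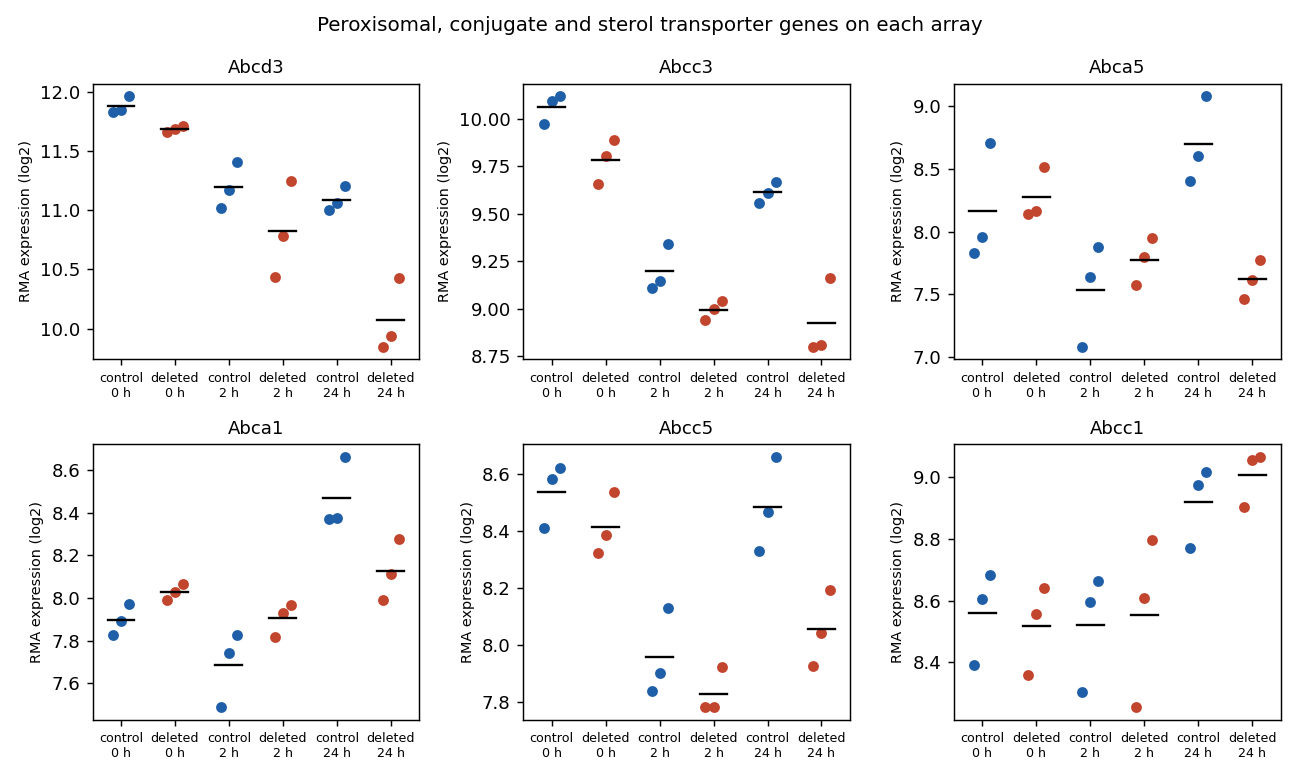
Log2 level of Abcd3, Abcc3, Abca5, Abca1, Abcc5 and Abcc1 on every array, by genotype (blue, control; red, Cebpa-deleted) and time in h, with black bars for group means. At 24 h the Cebpa-deleted points of the first 5 lie below all control points, as for Abca5 at 7.47 to 7.78 against 8.41 to 9.08, while those of Abcc1 overlap.

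Among the remaining members of subfamily A, Abca5, a lipid transporter of lysosomal membranes, differed most at 24 h. It read 7.96, 7.83 and 8.71 in controls and 8.14, 8.17 and 8.51 in Cebpa-deleted arrays at 0 h, and 7.64, 7.09 and 7.87 against 7.95, 7.80 and 7.58 at 2 h. At 24 h the values were 8.41, 9.08 and 8.60 against 7.47, 7.62 and 7.78. The groups overlapped at 0 and 2 h and were clearly apart at 24 h, where Abca5 was 2.11-fold lower (-1.08, SE 0.22, adjusted p = 0.00136). In controls it rose 2.24-fold from 2 to 24 h (1.16, SE 0.22, adjusted p = 0.00198). Its 24 h genotype difference was below that at 2 h by -1.32 (SE 0.31, adjusted p = 0.00902) and below that at 0 h by -1.18 (SE 0.31, adjusted p = 0.0255), the latter kept in 5 of 12 fits without 1 array. Abca2, which acts in endolysosomal lipid handling, was 1.29-fold lower at 24 h (-0.37, SE 0.11, adjusted p = 0.0115).
Abca8a and Abca8b lie in the same chromosome 11 cluster as Abca5, yet both were higher at 24 h, Abca8a 1.78-fold (0.83, SE 0.18, adjusted p = 0.00156). They are close copies, and signal shared between their features was not tested. Abca8b read 4.55, 4.41 and 4.47 in controls and 4.61, 4.51 and 4.57 in Cebpa-deleted arrays at 0 h, 5.15, 4.98 and 4.77 against 5.08, 5.02 and 5.18 at 2 h, and 4.80, 4.75 and 4.81 against 5.25, 5.19 and 5.34 at 24 h. The groups were separate at 24 h alone, with a 1.39-fold difference (0.48, SE 0.09, adjusted p = 9.91e-04). On average Abca8b was higher by 0.23 (SE 0.05, adjusted p = 0.00718) and Abca8a by 0.31 (SE 0.10, adjusted p = 0.0451). Without the 24 h arrays these averages were 0.11 (adjusted p = 0.661) and 0.04 (adjusted p = 0.954).
Abca14, Abca15 and Abca16 form a chromosome 7 cluster and Abca17 lies on chromosome 17, and all 4 are known mainly from mouse testis. Abca15 read 4.46, 4.50 and 4.57 in controls and 4.80, 4.49 and 4.68 in Cebpa-deleted arrays at 0 h, 5.32, 5.23 and 5.22 against 5.34, 5.10 and 5.34 at 2 h, and 5.12, 4.88 and 5.03 against 5.51, 5.66 and 5.47 at 24 h. Again the groups separated at 24 h alone, where Abca15 was 1.45-fold higher (0.54, SE 0.10, adjusted p = 7.30e-04). It was higher by 0.23 on average (SE 0.06, adjusted p = 0.0122) and by 0.07 without 24 h, which was not called (adjusted p = 0.809). Abca14 was 1.48-fold higher at 24 h (0.57, SE 0.14, adjusted p = 0.00336), and Abca13, a very large lipid transporter, 1.21-fold (0.27, SE 0.09, adjusted p = 0.0235). Abca17 was lower on average by -0.36 (SE 0.10, adjusted p = 0.0218), as was Abca4, the retinoid flippase of photoreceptors, by -0.19 (SE 0.06, adjusted p = 0.049; -0.18, adjusted p = 0.383, without 24 h).
The average calls of Abca17, Abca4 and Abca8a did not withstand leaving out single arrays. Abca17 missed the threshold without control 2 h replicate 3 (-0.34, adjusted p = 0.0508). Abca4 and Abca8a each missed it in 13 of the 18 fits without 1 array, among them those without control 24 h replicate 3 (-0.17, adjusted p = 0.0948, and 0.27, adjusted p = 0.0921). Abcg3, a rodent relative of Abcg2 with no established substrate, read 5.04, 4.99 and 4.97 in controls and 5.27, 5.18 and 5.29 in Cebpa-deleted arrays at 0 h. At 2 h it read 5.21, 5.20 and 5.23 against 5.30, 5.26 and 5.34, and at 24 h 4.80, 4.97 and 5.18 against 5.37, 5.47 and 5.44. The groups did not overlap at any time. Abcg3 was 1.36-fold higher at 24 h (0.44, SE 0.09, adjusted p = 0.00121) and 1.20-fold higher on average (0.26, SE 0.05, adjusted p = 0.0025; 0.16, adjusted p = 0.197, without 24 h). After a second quantile normalization the 24 h change of Abcg3 was 0.21 and not called (adjusted p = 0.0888), and its 0 h change of 0.24 did not pass (adjusted p = 0.324).

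Both called mitochondrial carriers were lower at 24 h, beside 26.4% of all genes. All 3 measured carriers, and the 4 ribosome-linked members, lay over the all-gene median value, where most 24 h calls were lower. Abcb8, linked to mitochondrial iron handling, was 1.40-fold lower (-0.49, SE 0.11, adjusted p = 0.00225), and Abcb10, which supports haem synthesis, 1.23-fold lower (-0.30, SE 0.11, adjusted p = 0.0327). Abcb6, a porphyrin transporter, was not called. At the ribosome, Abcf2 was 1.41-fold lower at 24 h (-0.49, SE 0.11, adjusted p = 0.00196) and lower on average by -0.26 (SE 0.06, adjusted p = 0.00877; -0.14, adjusted p = 0.489, without 24 h). Abcf3 was 1.28-fold lower at 24 h (-0.35, SE 0.09, adjusted p = 0.00588), while Abcf1, a translation initiation factor, and Abce1, which splits terminated ribosomes, were not called. Of the sulfonylurea receptors Abcc8 was 1.31-fold higher at 24 h (0.39, SE 0.11, adjusted p = 0.00721) and Abcc9 was not called. After a second quantile normalization Abcc8 was 0.15 and not called (adjusted p = 0.193). Abcb5, read from the feature of higher mean of its 2, was 1.22-fold higher (0.29, SE 0.11, adjusted p = 0.0354).

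The 24 h calls divided by the measured value of the member. RMA values of different features also depend on probe affinity and do not rank transcripts by amount. Of 27 members whose mean value was under the all-gene median of 7.028, 16 were called higher and 0 lower by limma at 24 h, with 0 lower also at an unadjusted p below 0.05. Of 20 members over it, 12 were called lower and 1, Abcb1a, higher. Medians of the change were 0.33 and -0.34. The same split over all genes gave 40.7% higher and 3.59% lower under the median, with a median change of 0.25. Over it, 7.95% were higher and 49.2% lower, with a median of -0.26. The Cebpa-deleted arrays at 24 h also had the narrowest interquartile range of the 6 groups, as given above.
With each array's interquartile range as a covariate, 0 of the 29 members stayed called at 24 h in limma, and 9 members had an unadjusted p below 0.05. The ranges of the genotypes did not overlap at 24 h, so array spread and genotype cannot be told apart in that fit. Some changes kept their size there, such as Abca8a (0.84), Abcg2 (0.68) and Abca1 (-0.31), while 8 of the 29 turned sign. Without Cebpa-deleted 24 h replicates 1 and 2, an alternative chosen after seeing the data that leaves 1 array in that group, 0 were called and 12 members had an unadjusted p below 0.05. Of the 29 calls, 16 stood in every fit that left out 1 array. Without Cebpa-deleted 24 h replicate 2 alone, 17 members were called. Besides Abca1, Abcb1b and Abcg2, the calls that some left-out array ended were Abca2, Abca13, Abcb4, Abcb5, Abcb10, Abcc4, Abcc6, Abcc12, Abcg5 and Abcg8, each of them without Cebpa-deleted 24 h replicate 2, with values of -0.33, 0.20, 0.30, 0.30, -0.25, -0.35, 0.31, 0.19, 0.28 and 0.38.
Control 24 h replicate 1 also ended the calls of Abca13 (0.25), Abcb4 (0.30), Abcb5 (0.27), Abcb10 (-0.27), Abcc4 (-0.31), Abcc6 (0.31) and Abcg5 (0.24). Control 24 h replicate 2 ended Abcb10 (-0.25), Abcc12 (0.24), Abcg5 (0.37) and Abcg8 (0.34), and control 24 h replicate 3 ended Abcb4 (0.28), Abcb5 (0.24) and Abcc12 (0.22). Cebpa-deleted 24 h replicate 1 ended Abcb4 (0.32), Abcc12 (0.28) and Abcg5 (0.30), and replicate 4 ended Abcb5 (0.22). With arrays centred on their medians the split of the 24 h calls was 11 higher and 15 lower, in place of 17 and 12, and after a second quantile normalization 7 and 11. The all-gene split under these settings is not given here, so these counts do not set the members apart from all genes. Besides Abcg2, Abcg3 and Abcc8, the second normalization ended the calls of Abcc2 (0.30, adjusted p = 0.0566), Abca1 (-0.20, adjusted p = 0.145), Abca2 (-0.23, adjusted p = 0.0698), Abca13 (0.02, adjusted p = 0.862), Abcb1b (0.23, adjusted p = 0.186), Abcb4 (0.10, adjusted p = 0.549), Abcb5 (0.10, adjusted p = 0.517), Abcc12 (0.02, adjusted p = 0.900), Abcg5 (0.14, adjusted p = 0.428) and Abcg8 (0.18, adjusted p = 0.210). Fibroblast and pericyte markers were called higher at 24 h in 12 of 14 cases, with list means of 6.75 to 7.08 in controls and 7.35 to 7.56 in Cebpa-deleted arrays. Of the lymphocyte markers 6 of 9 were higher, with means of 6.62 to 7.24 and 7.58 to 7.85. Of the fibroblast and pericyte markers 8 lay under the all-gene median value and 6 over it, and of the lymphocyte markers 2 and 7. Under the median 40.7% of all genes were called higher at 24 h, and over it 7.95%. Median changes of all genes were 0.25 and -0.26 on those sides. The part of these markers in the 24 h calls was not tested.

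**Figure D4:**
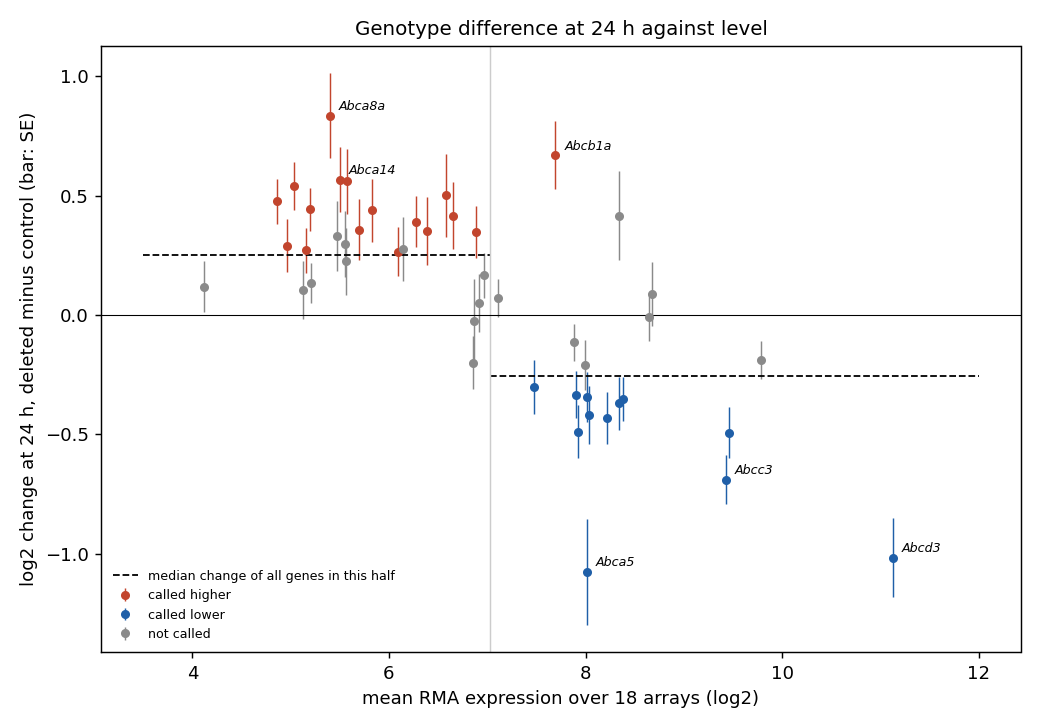
Log2 change at 24 h, Cebpa-deleted minus control, with its standard error, against the mean log2 value of each of the 47 members over 18 arrays. Dashed lines give the median change of all genes under and over the all-gene median value (0.25 and -0.26), and called members lie over 0 on the left and under 0 on the right, except Abcb1a.

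The sign of the genotype difference was positive at all 3 times in 13 members and negative in 11, with 23 mixed. Signs were not counted over all genes, so these counts are not read as a trait of the members. At 0 h 7 members lay wholly above the controls and 2 wholly below, beside 8.49% and 8.77% of all genes. At 2 h the counts were 4 and 4, beside 6.95% and 5.56%, and at 24 h 18 and 14, beside 31.7% and 30.4%.

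Changes over time were read mainly from 2 to 24 h, because the arrays at 0 h had a wider interquartile range than all later ones. Lowest values were 2.18 to 2.30 on the 0 h arrays and 2.74 to 2.89 on the later ones. Highest values were 14.53 to 14.62 and 13.70 to 13.88. Time and a possible difference in processing therefore cannot be told apart in changes from 0 h. The interquartile range also differed between 2 and 24 h. In controls it was 2.132 to 2.382 at 2 h and 2.441 to 2.52 at 24 h. In Cebpa-deleted arrays it was 2.156 to 2.55 at 2 h and 1.82 to 2.129 at 24 h. In controls 6 members rose and 1 fell from 2 to 24 h, against 12.4% of all genes called (7.97% up and 4.46% down). After Abca5 and Abca1, given above, the largest rises were those of Abcc5 (0.53, SE 0.11, adjusted p = 0.00364) and Abcc3 (0.41, SE 0.10, adjusted p = 0.0129). Abca17 fell by 0.68 (SE 0.18, adjusted p = 0.016). The Abcc3 call was lost without control 2 h replicate 1 (0.37, adjusted p = 0.0654), control 2 h replicate 2 (0.39, adjusted p = 0.0536) or control 24 h replicate 3 (0.39, adjusted p = 0.0558). That of Abca17 was lost without control 2 h replicate 1 (-0.68, adjusted p = 0.0512), control 2 h replicate 3 (-0.62, adjusted p = 0.0563) or control 24 h replicate 3 (-0.57, adjusted p = 0.0839). Abca5, Abca1, Abcc5 and Abca17 stayed called with the interquartile range as a covariate, and Abcc3 did not (0.27, adjusted p = 0.0733).
In Cebpa-deleted cells 7 members rose and 8 fell from 2 to 24 h, against 31.4% of all genes called (11.8% up and 19.6% down). The largest rises were Abcc2 (0.53, adjusted p = 0.00801), Abca14 (0.48, adjusted p = 0.0128), Abca8a (0.48, adjusted p = 0.0461) and Abcc1 (0.45, adjusted p = 0.0164). The largest falls were Abcd3 (-0.75, adjusted p = 0.00351), Abcb8 (-0.53, adjusted p = 0.00214), Abcg1 (-0.51, adjusted p = 0.0451) and Abcf2 (-0.41, adjusted p = 0.00959). Only the calls of Abcd3 and Abcb8 among these 8 stood in every fit without 1 array. None of the 8 stayed called with the interquartile range as a covariate, Abcd3 then being -0.06 and Abcb8 -0.17. After a second quantile normalization Abcc2 (0.30), Abca14 (0.24), Abca8a (0.25), Abcg1 (-0.39) and Abcf2 (-0.24) were not called. Without Cebpa-deleted 24 h replicate 2 the changes of Abcc2, Abca14, Abca8a, Abcc1, Abcg1 and Abcf2 were 0.45, 0.46, 0.50, 0.43, -0.52 and -0.30, none of them called. Cebpa-deleted 2 h replicate 2 also ended the calls of Abcc2 (0.38), Abca8a (0.34), Abcc1 (0.31) and Abcf2 (-0.34), and Cebpa-deleted 24 h replicate 1 those of Abca14 (0.41), Abca8a (0.58), Abcc1 (0.42) and Abcg1 (-0.52). Cebpa-deleted 24 h replicate 4 ended Abca8a (0.36) and Abcg1 (-0.50), and the call of Abcg1 was also lost without Cebpa-deleted 2 h replicate 3 (-0.51) or 4 (-0.30). The genotype by time differences were called for 16 members between 24 and 2 h, 10 upward and 6 downward, against 30.8% of all genes (14.3% and 16.5%), and for 6 members between 24 and 0 h, 2 upward and 4 downward, against 14.3% of all genes (5.46% and 8.88%).
From 0 to 24 h 17 members rose and 10 fell in controls, against 59.9% of all genes called (25.3% up and 34.6% down), and 19 rose and 16 fell in Cebpa-deleted cells, against 77.6% (36% up and 41.5% down). The largest control changes were Abca12, a lipid transporter of skin lamellar granules (0.78), Abcg4 (0.78), Abca16 (0.77) and Abcc12 (0.75), and downward Abca17 (-1.11), Abcd3 (-0.79), Abcf1 (-0.77) and Abcf2 (-0.53). In Cebpa-deleted cells they were Abca8a (1.25), Abcc2 (1.10), Abcc12 (0.95) and Abca15 (0.89), and downward Abcd3 (-1.61), Abcf2 (-0.92), Abcc3 (-0.86) and Abcf1 (-0.83). After a second quantile normalization the control changes of Abcd3 and Abcf2 were -0.29 (adjusted p = 0.112) and -0.12 (adjusted p = 0.288), neither called. The other named members stayed called, with smaller changes, such as Abcd3 at -0.93 and Abcc3 at -0.25 in Cebpa-deleted cells. Apart from Abca17, the falling members named here lay over the all-gene median value and the rising ones under it, and the interquartile range was narrower after 0 h. With the interquartile range as a covariate 7 members were called in controls and 0 in Cebpa-deleted cells in limma, where 4 had an unadjusted p below 0.05.

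**Figure D5:**
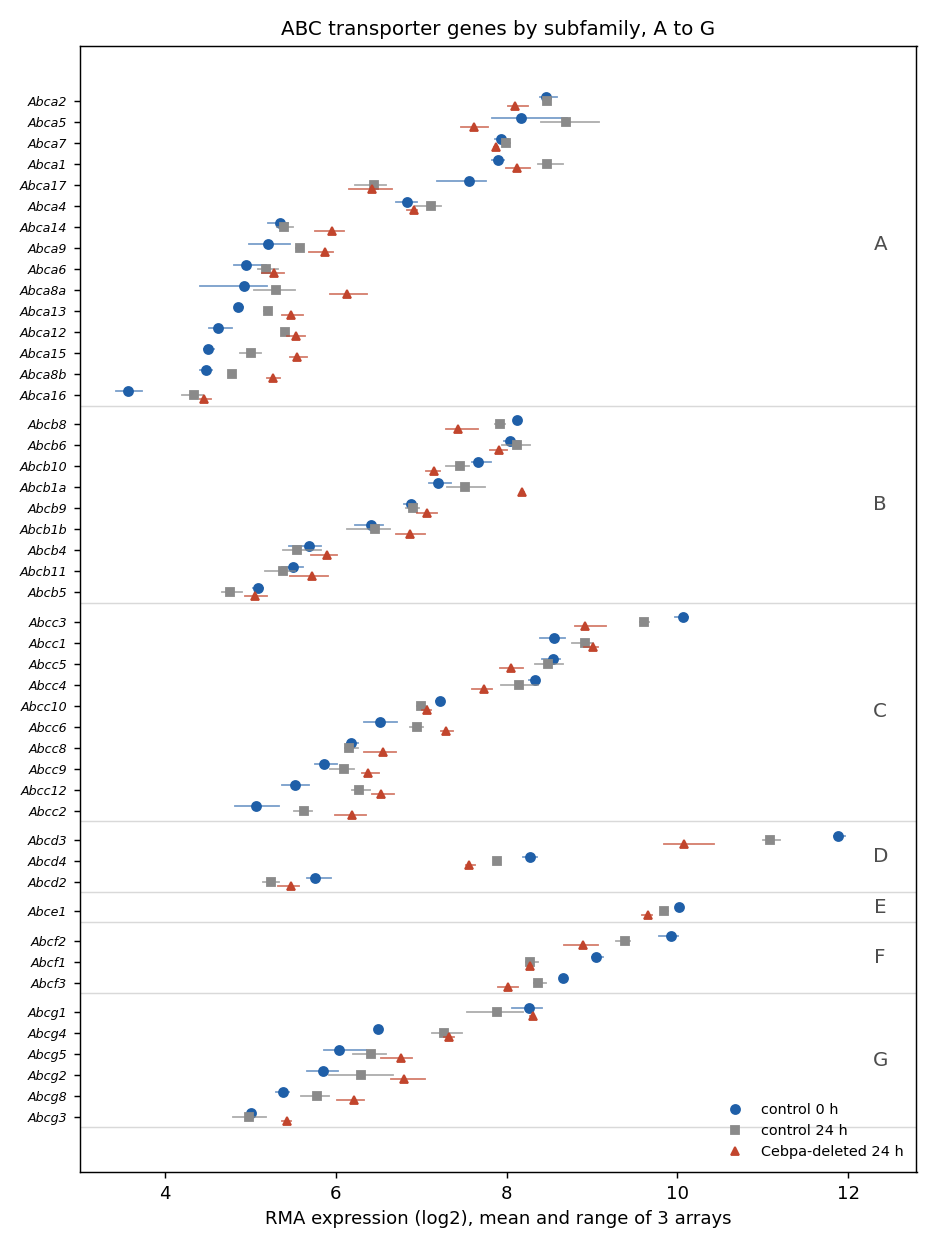
Mean log2 level and range over 3 arrays of each of the 47 members in controls at 0 h, controls at 24 h and Cebpa-deleted cells at 24 h, ordered by subfamily. Abcd3 has the highest 18-array mean value (11.12) and Abca16 the lowest (4.12), and values of different genes are not a ranking of transcript amounts.

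Genes of the wider superfamily outside the symbol rule, Cftr, Tap1 and Tap2, were read for comparison, and the changes of Tap2 are not given here. Cftr, the chloride channel of subfamily C, was lower by 1.14 at 24 h (adjusted p = 0.003) and by 0.66 on average (adjusted p = 0.0072). Tap1, a peptide carrier of antigen presentation, had a difference of 0.01 at 24 h and was higher by 0.22 on average (adjusted p = 0.0311). Of 10 genes that sense drugs and oxidants, 1 was higher and 3 lower at 24 h, beside 24.3% and 26.4% of all genes. Nr1i3, a xenobiotic receptor, was higher by 0.41. Nfe2l2, which drives antioxidant genes and Abcc exporters, and its inhibitor Keap1 were lower by 0.40 and 0.50, and Arnt, the partner of the aryl hydrocarbon receptor, by 0.35. Cftr and these 3 lower genes lay over the all-gene median value and Nr1i3 under it, the same split by value as in the 24 h calls above.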

How the data were processed

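Total RNA of isolated alveolar type II cells was labelled with biotin and hybridised to 18 mouse Affymetrix arrays, 3 in each of 6 groups, per the labels' protocols. The deposited values were log2 levels that the authors made with RMA, per the submitters' processing notes. The RMA version, its filters, the genome build and whether all arrays were normalized together are not given in the sources used here. The values were used as deposited. Counts and read depth do not apply, and the number of arrays limits the precision.

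Of 35557 features, 21789 carried 1 symbol in the platform annotation, 1621 several and 12147 none. The feature with the highest mean was kept for each symbol, which gave 19938 genes, and all 47 members matched RefSeq by Entrez number. Features of near-identical genes may share signal. One limma model (limma 3.58.1 in R 4.3.3) with 6 group means gave 4 genotype comparisons, 4 time comparisons and 2 differences between times, with Benjamini-Hochberg adjustment over all genes and a threshold of 0.05. The script was tested on simulated data before use. Figures were drawn with matplotlib 3.10.9 in Python 3.11.15.

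Members called in any genotype comparison were named with their change and standard error, the 8 with the smallest adjusted p and a fixed set of sterol and drug exporters were given for every array, and for time the 4 largest called changes in each direction were named. The members and lists were chosen with earlier results of these data known. Alternatives were a second quantile normalization, median centring, replicate numbers entered as a block, the mean over features, the upper 60 percent of genes, a trended robust prior, the interquartile range as a covariate, only the arrays compared, and each array left out. Added after seeing the data were the genotype comparison without the 2 narrowest arrays and the average without 24 h. Promoter windows were taken from RefSeq (GRCm38.p6).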

Additional observations from a re-analysis of the deposited data

Results flagged for a closer look

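The genotype difference was called different between times for the members named here, by interaction terms of the limma model adjusted over all genes. Negative values mean a lower Cebpa-deleted level, relative to control, at 24 h than at the earlier time.

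Between 24 and 0 h the difference changed by -0.48 for Abca1 (adjusted p = 0.044), -1.18 for Abca5 (adjusted p = 0.0255), -0.82 for Abcd3 (adjusted p = 0.0331) and -0.87 for Abcg2 (adjusted p = 0.0316). It changed by 0.88 for Abca8a (adjusted p = 0.0312) and 0.48 for Abcc8 (adjusted p = 0.0447). The difference of Abcg2 stayed positive at 24 h, while those of Abca1 and Abca5 were 0.13 and 0.11 at 0 h, neither called, and negative at 24 h. Each of these 6 calls was lost in at least 1 fit without a single array, and 0 members were called without Cebpa-deleted 0 h replicate 2 or Cebpa-deleted 24 h replicate 1 or 2.

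Between 24 and 2 h the falls were -0.56 for Abca1 (adjusted p = 0.0143), -0.57 for Abca2 (adjusted p = 0.0164), -1.32 for Abca5 (adjusted p = 0.00902), -0.45 for Abcb8 (adjusted p = 0.0361), -0.48 for Abcc3 (adjusted p = 0.0226) and -0.64 for Abcd3 (adjusted p = 0.0467). The rises were 0.70 for Abca8a (adjusted p = 0.0418), 0.48 for Abca13 (adjusted p = 0.0169), 0.56 for Abca14 (adjusted p = 0.0358), 0.54 for Abca15 (adjusted p = 0.0137), 0.74 for Abcc2 (adjusted p = 0.013), 0.46 for Abcc6 (adjusted p = 0.0356), 0.47 for Abcc8 (adjusted p = 0.029), 0.36 for Abcg3 (adjusted p = 0.0416), 0.54 for Abcg5 (adjusted p = 0.0492) and 0.50 for Abcg8 (adjusted p = 0.0488). Fits without 1 array were run for 8 of these members. The calls of Abca1, Abca2, Abca5, Abca15 and Abcc2 stood in all 12, and those of Abcd3, Abca14 and Abca8a in 3, 4 and 5 of 12. Without Cebpa-deleted 2 h replicate 2, Abcd3 was -0.43 (adjusted p = 0.134), Abca14 0.55 (adjusted p = 0.0726) and Abca8a 0.56 (adjusted p = 0.113). After a second quantile normalization the calls of Abca1 (-0.41, adjusted p = 0.0591), Abca15 (0.25, adjusted p = 0.198), Abcc2 (0.43, adjusted p = 0.0882), Abca8a (0.41, adjusted p = 0.276), Abca14 (0.25, adjusted p = 0.297) and Abcd3 (-0.47, adjusted p = 0.109) were lost. The interquartile range of the arrays also differed between these groups, and with it as a covariate 0 members were called between 24 and 2 h or between 24 and 0 h, where 5 and 2 had an unadjusted p below 0.05 in limma.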

How the results depend on the processing

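The Abcg2 call at 0 h stood under every alternative run, and that at 2 h under all but the fit of only the arrays compared. Counts of members called are given in the order of the settings. After a second quantile normalization they were 3 at 2 h, 18 at 24 h, 3 for the difference between 24 and 0 h and 4 between 24 and 2 h. The replicate numbers showed no clear pairing of the arrays, with correlations of the deviations of -0.039, 0 and 0.04 at 0 h, -0.24 and -0.219 at 2 h, and 0.052 and 0.058 at 24 h, and 1 of 3 control arrays at 0 h correlated best with its own number. With so few pairs at each time, a shared origin of arrays with the same number cannot be told from these values. With the replicate block the counts were 1 at 0 h, 1 at 2 h, 20 at 24 h, 10 in the average, 9 for 2 to 24 h in Cebpa-deleted cells, 0 between 24 and 0 h (15 at an unadjusted p below 0.05 in limma) and 8 between 24 and 2 h. With the upper 60 percent of genes, which kept 27 members, they were 2 at 2 h, 17 at 24 h, 16 and 20 for 0 to 24 h in control and Cebpa-deleted cells, and 8 between 24 and 2 h, fewer members being tested. With the interquartile range as a covariate they were 5 at 2 h, 0 at 24 h, 6 in the average, 0 for 2 to 24 h in Cebpa-deleted cells, 7 and 0 for 0 to 24 h, and 0 for both differences between times. The range did not overlap between genotypes at 24 h, nor between times within a genotype, so spread and group cannot be told apart there. With only the arrays compared they were 0 at 2 h (5 at an unadjusted p below 0.05 in limma) and 2 for 2 to 24 h in Cebpa-deleted cells. Without the 2 narrowest Cebpa-deleted 24 h arrays they were 0 at 24 h, 8 in the average, 0 for 2 to 24 h in Cebpa-deleted cells and 0 for both differences between times, at unadjusted p below 0.05 12, 6, 4 and 9 in limma where 0 were called. The average without 24 h called 3.

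Leaving out 1 array gave 1 to 1 members at 0 h, 1 to 6 at 2 h, 17 to 30 at 24 h, 12 to 18 in the average, 4 to 5 and 3 to 18 for 2 to 24 h in control and Cebpa-deleted cells, 20 to 27 and 30 to 34 for 0 to 24 h, 0 to 14 between 24 and 0 h and 5 to 21 between 24 and 2 h. The 6 at 2 h came without Cebpa-deleted 2 h replicate 2. The control 2 to 24 h count was 4 without each control 2 h array. In Cebpa-deleted cells it was 4 without Cebpa-deleted 2 h replicate 2, and 5 and 3 without Cebpa-deleted 24 h replicates 1 and 2. The difference between 24 and 2 h gave 5 without control 2 h replicate 1 or Cebpa-deleted 24 h replicate 2. Signs turned under the interquartile range covariate alone: at 24 h Abca2 was 0.086, Abcb1b -0.0090, Abcb10 0.048, Abcc6 -0.034, Abcc12 -0.012, Abcf3 0.011, Abcg5 -0.011 and Abcg8 -0.068, and Abcd3 was 0.11 and 0.12 for 0 to 24 h in control and Cebpa-deleted cells, 0.0026 between 24 and 0 h and 0.42 between 24 and 2 h. The causes were not tested. Over all genes, 0 h calls were 171 (9 after quantile normalization), 2 h calls 280 (1 with only the arrays compared, 62 with the block, 999 with the covariate) and 24 h calls 10110 (4 with the covariate, 217 without the narrowest arrays).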
